A study of Mus musculus with 8 samples.

Results

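The genes described here are 9 factors of nonsense-mediated mRNA decay (NMD), the UPF genes Upf1, Upf2, Upf3a and Upf3b and the SMG genes Smg1, Smg5, Smg6, Smg8 and Smg9. They were chosen by name from the 55291 gene symbols in each count table, and all 9 were among the 16371 genes that passed the expression filter. RNA was sequenced from 8 libraries of mouse E14 embryonic stem cells kept with LIF, serum and the inhibitors PD0325901 and CHIR99021. The growth protocol in the sample labels speaks of R1 cells instead. In 1 edited line DHX35, and in the other GPATCH1, carries the FKBP12 F36V degron, which lets the compound dTAG-13 direct the tagged protein to degradation. DHX35 is an RNA helicase and GPATCH1 a G-patch protein, and the study asked how their loss affects the fidelity of splicing.

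The 4 groups were DHX35-dTAG cells in DMSO, DHX35-dTAG cells in 200 nM dTAG-13, GPATCH1-dTAG cells in DMSO and GPATCH1-dTAG cells in 200 nM dTAG-13, each for 4 h and each with 2 libraries. Edited lines were grown from single picked colonies, the labels do not name the clones, and no untagged line was analysed here, so line and clone cannot be told apart. The labels do not say whether the 2 libraries of a group came from separate cultures, so the tests measure the spread between these libraries, which may be technical.

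NMD degrades mRNAs on which translation ends too early, such as those left with a premature stop codon by an error of splicing. The helicase UPF1 is brought to the terminating ribosome, UPF2 and UPF3 proteins link it to the exon junction complexes that splicing leaves on mRNA, and the kinase SMG1 phosphorylates UPF1, which then attracts effectors that include SMG5 and SMG6. The mRNAs of several of these factors are themselves known targets of the pathway in mammalian cells.

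The total counts were 12765765 and 14173639 in DHX35-dTAG cells in DMSO, and 12014203 and 13197149 in dTAG-13. GPATCH1-dTAG cells had 14663300 and 13353642 counts in DMSO, and 14994173 and 13149257 in dTAG-13. Of these, 15004 to 22946 counts per library fell on the 9 NMD factors. The smallest single count was 276, for Upf3b. Values are given as CPM, counts scaled to the library size after TMM normalization, in the order replicate 1, replicate 2.

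The replicate 1 library of the DHX35-dTAG DMSO group was unlike the rest. Its mean correlation with them over log2 CPM was 0.982, against 0.992 to 0.993 for the other 7. It held the highest level of Upf3a, Smg6 and Smg9 and the lowest level of Smg1 and Smg8 among the 8 libraries. It is called the deviant DMSO library below.

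The share of all counts that fell on Gm23935 and CT010467.1, taken as residual ribosomal RNA, also differed among the libraries, and the cause was not tested. It was higher in dTAG-13 than in DMSO in DHX35-dTAG cells and lower in GPATCH1-dTAG cells, whose DMSO libraries lay far apart. It was 3.15% and 1.54% in DHX35-dTAG cells in DMSO and 12% and 20.2% in dTAG-13. In GPATCH1-dTAG cells it was 4.23% and 20.9% in DMSO and 1.27% and 2.02% in dTAG-13. With both genes left out before library sizes were computed, edgeR called 0 of the 9 NMD factors in each of the 6 comparisons below. With both genes kept it also called 0 of the 9 in each, so the count could not fall. Whether this share affected the levels of the 9 genes was not tested.

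The labelled cell type was checked against marker genes. All 7 pluripotency markers passed the filter, from Sox2 at a mean of 256.5 CPM to Tfcp2l1 at 1653 CPM, and their counts together summed to 3965 to 5295 CPM without TMM scaling in every library. The 6 fibroblast markers summed to 2.17 to 6.11 on that scale, led by Thy1, and Col3a1, Postn and Lum had at most 3 counts over all 8 libraries. Summed levels were 5.62 to 8.14 for 6 extra-embryonic endoderm markers, led by Pdgfra, and 3.53 to 6.49 for 6 markers of the 2-cell-like state, led by Zscan4d. The 6 trophoblast markers summed to 43.4 to 69.4, led by Tfap2c, while Elf5 had at most 3 counts over all 8 libraries. The highest fibroblast and trophoblast sums were both in replicate 1 of DHX35-dTAG cells in DMSO, and their part in the results was not tested.

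The mRNAs of the degron targets were examined as a check of the labels, although the degron acts on the protein. Dhx35 stood at 72.3 and 80.4 CPM in DHX35-dTAG cells in DMSO, at 84.8 and 79.5 in dTAG-13, at 58.1 and 58.4 in GPATCH1-dTAG cells in DMSO and at 59.3 and 64.9 in dTAG-13. Gpatch1 stood at 25.6 and 23.4 CPM in DHX35-dTAG cells in DMSO, at 23.2 and 23.7 in dTAG-13, at 7.31 and 6.90 in GPATCH1-dTAG cells in DMSO and at 7.06 and 7.20 in dTAG-13. Both mRNAs were lower in every GPATCH1-dTAG library than in every DHX35-dTAG library, and treated and control libraries of a line overlapped except for Dhx35 in GPATCH1-dTAG cells. Over both treatments the line difference in log2 was -1.75 for Gpatch1 (95% interval -1.93 to -1.57; edgeR, adjusted p = 6.5e-06). For Dhx35 it was -0.40 (95% interval -0.54 to -0.26, edgeR, adjusted p = 0.021). The mRNA levels separate the lines and say nothing of how much protein was lost, which was not measured in these files. The paper describes a western blot of both tagged proteins during up to 4 h of dTAG-13, and reports that degradation was effective.

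The UPF core is taken up before the SMG genes. Upf1 (ENSMUSG00000058301.8), the ATP-dependent helicase at the centre of the pathway, lies on chromosome 8 of GRCm38 from 70331525 to 70353278 on the minus strand. It stood at 222 and 227 CPM in DHX35-dTAG cells in DMSO, 239 and 213 in dTAG-13, 222 and 214 in GPATCH1-dTAG cells in DMSO and 236 and 215 in dTAG-13. The highest and the lowest of the 8 values came from the same group, DHX35-dTAG cells in dTAG-13, and treated and control libraries overlapped in both lines. The log2 fold change was 0.01 on DHX35 depletion (95% interval -0.19 to 0.21, adjusted p = 0.97). On GPATCH1 depletion it was 0.05 (95% interval -0.15 to 0.25, adjusted p = 1).

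Upf2 (ENSMUSG00000043241.14; chromosome 2, 5951469 to 6056703, plus strand) encodes the adaptor between UPF1 and UPF3 proteins. Its levels were 68.5 and 76.6 CPM in DHX35-dTAG cells in DMSO, 68.2 and 79.4 in dTAG-13, 74.4 and 76.1 in GPATCH1-dTAG cells in DMSO and 76.2 and 82.6 in dTAG-13. The DHX35-dTAG groups overlapped, and the GPATCH1-dTAG groups were separated by a margin smaller than the difference between the treated replicates. DHX35 depletion gave a log2 fold change of 0.02 (95% interval -0.21 to 0.26, adjusted p = 0.95). GPATCH1 depletion gave 0.08 (95% interval -0.16 to 0.31, adjusted p = 1).

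Upf3a (ENSMUSG00000038398.8; chromosome 8, 13785615 to 13799193, plus strand) and Upf3b are paralogs that bridge UPF2 and the exon junction complex. Upf3a was measured at 48.6 and 39.6 CPM in DHX35-dTAG cells in DMSO, 38.0 and 37.9 in dTAG-13, 41.8 and 42.5 in GPATCH1-dTAG cells in DMSO and 42.5 and 43.2 in dTAG-13. Replicate 1 of DHX35-dTAG cells in DMSO was above the other 7 libraries, and both dTAG-13 libraries of that line were below all others. Among the 9 genes, Upf3a had the fitted change farthest from 0 on DHX35 depletion, with a log2 fold change of -0.22 (95% interval -0.47 to 0.04, adjusted p = 0.71). Leaving out that high library gave -0.06 (adjusted p = 0.99). Leaving out its partner, replicate 2, so that the high library alone stood for DMSO and was assumed to vary like the other groups, gave -0.35 (adjusted p = 0.007, in a range of 0.007 to 1 over 16 alternatives), and 4949 of 17175 genes were then called, against 0 with both. On GPATCH1 depletion the log2 fold change of Upf3a was 0.02 (95% interval -0.23 to 0.28, adjusted p = 1).

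Upf3b (ENSMUSG00000036572.16) lies on chromosome X from 37091678 to 37110322 on the minus strand. It stood at 24.5 and 31.0 CPM in DHX35-dTAG cells in DMSO, 23.6 and 28.7 in dTAG-13, 31.7 and 27.5 in GPATCH1-dTAG cells in DMSO and 26.5 and 28.2 in dTAG-13. Treated and control libraries overlapped in both lines, and the spread within DHX35-dTAG groups was wider than the distance between their means. The log2 fold change was -0.09 on DHX35 depletion (95% interval -0.43 to 0.25, adjusted p = 0.86) and -0.25 without the deviant DMSO library (adjusted p = 0.99). GPATCH1 depletion gave -0.12 (95% interval -0.45 to 0.22, adjusted p = 1). This value was -0.01 without replicate 1 of GPATCH1-dTAG cells in DMSO and -0.22 without replicate 2 of that group. Over its 8 libraries Upf3b had a coefficient of variation of 10.3%, above that of the other 8 NMD factors.

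The SMG1 kinase complex consists of the kinase and its regulatory subunits SMG8 and SMG9. Smg1 (ENSMUSG00000030655.15; chromosome 7, 118131308 to 118243670, minus strand) encodes a kinase of the PIKK family, to which ATM, ATR and mTOR also belong. Its levels were 408 and 487 CPM in DHX35-dTAG cells in DMSO, 439 and 483 in dTAG-13, 491 and 495 in GPATCH1-dTAG cells in DMSO and 500 and 523 in dTAG-13. All 4 GPATCH1-dTAG libraries were above all 4 DHX35-dTAG libraries, and the DHX35-dTAG groups overlapped each other. DHX35 depletion gave a log2 fold change of 0.04 (95% interval -0.19 to 0.27, adjusted p = 0.91). GPATCH1 depletion gave 0.05 (95% interval -0.18 to 0.28, adjusted p = 1). The difference between the lines over both treatments was 0.15 in log2 (95% interval -0.01 to 0.30, adjusted p = 0.35).

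Smg8 (ENSMUSG00000020495.13; chromosome 11, 87077732 to 87086774, minus strand) was measured at 61.6 and 65.5 CPM in DHX35-dTAG cells in DMSO, 72.1 and 64.0 in dTAG-13, 62.7 and 65.1 in GPATCH1-dTAG cells in DMSO and 67.0 and 65.5 in dTAG-13. The single high value was replicate 1 of DHX35-dTAG cells in dTAG-13, whose partner replicate lay among the controls. The log2 fold change was 0.10 on DHX35 depletion (95% interval -0.11 to 0.31, adjusted p = 0.75). This value was 0.01 without replicate 1 of DHX35-dTAG cells in dTAG-13 and 0.19 without replicate 2 of that group. GPATCH1 depletion gave 0.05 (95% interval -0.16 to 0.26, adjusted p = 1).

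Smg9 (ENSMUSG00000002210.11; chromosome 7, 24399619 to 24422778, plus strand) stood at 29.7 and 26.1 CPM in DHX35-dTAG cells in DMSO, 28.0 and 27.4 in dTAG-13, 27.5 and 28.9 in GPATCH1-dTAG cells in DMSO and 28.8 and 26.9 in dTAG-13. The highest and the lowest value were the replicates of 1 group, DHX35-dTAG cells in DMSO, and all groups overlapped. DHX35 depletion gave a log2 fold change of -0.01 (95% interval -0.25 to 0.23, adjusted p = 0.98). GPATCH1 depletion gave -0.02 (95% interval -0.26 to 0.23, adjusted p = 1).

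The effectors act on phosphorylated UPF1. Smg5 (ENSMUSG00000001415.10; chromosome 3, 88336260 to 88362338, plus strand) encodes an adaptor that helps to return UPF1 to its unphosphorylated form. Its levels were 305 and 319 CPM in DHX35-dTAG cells in DMSO, 331 and 298 in dTAG-13, 345 and 333 in GPATCH1-dTAG cells in DMSO and 354 and 349 in dTAG-13. As for Smg1, all GPATCH1-dTAG libraries were above all DHX35-dTAG libraries. The log2 fold change was 0.01 on DHX35 depletion (95% interval -0.18 to 0.20, adjusted p = 0.97). GPATCH1 depletion gave 0.05 (95% interval -0.14 to 0.24, adjusted p = 1). The difference between the lines over both treatments was 0.14 in log2 (95% interval 0.01 to 0.27, adjusted p = 0.29).

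Smg6 (ENSMUSG00000038290.15; chromosome 11, 74925823 to 75164448, plus strand) encodes the endonuclease that cuts NMD targets near the stop codon. It stood at 99.2 and 92.7 CPM in DHX35-dTAG cells in DMSO, 91.6 and 94.4 in dTAG-13, 87.4 and 91.0 in GPATCH1-dTAG cells in DMSO and 91.1 and 87.5 in dTAG-13. Here the order of the lines was the other way round, with all GPATCH1-dTAG libraries below all DHX35-dTAG libraries. DHX35 depletion gave a log2 fold change of -0.05 (95% interval -0.23 to 0.14, adjusted p = 0.87). On GPATCH1 depletion the fitted fold was 1.00 (95% interval 0.881 to 1.14, adjusted p = 1). The difference between the lines over both treatments was -0.08 in log2 (95% interval -0.20 to 0.04, adjusted p = 0.50).

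**Figure D1:**
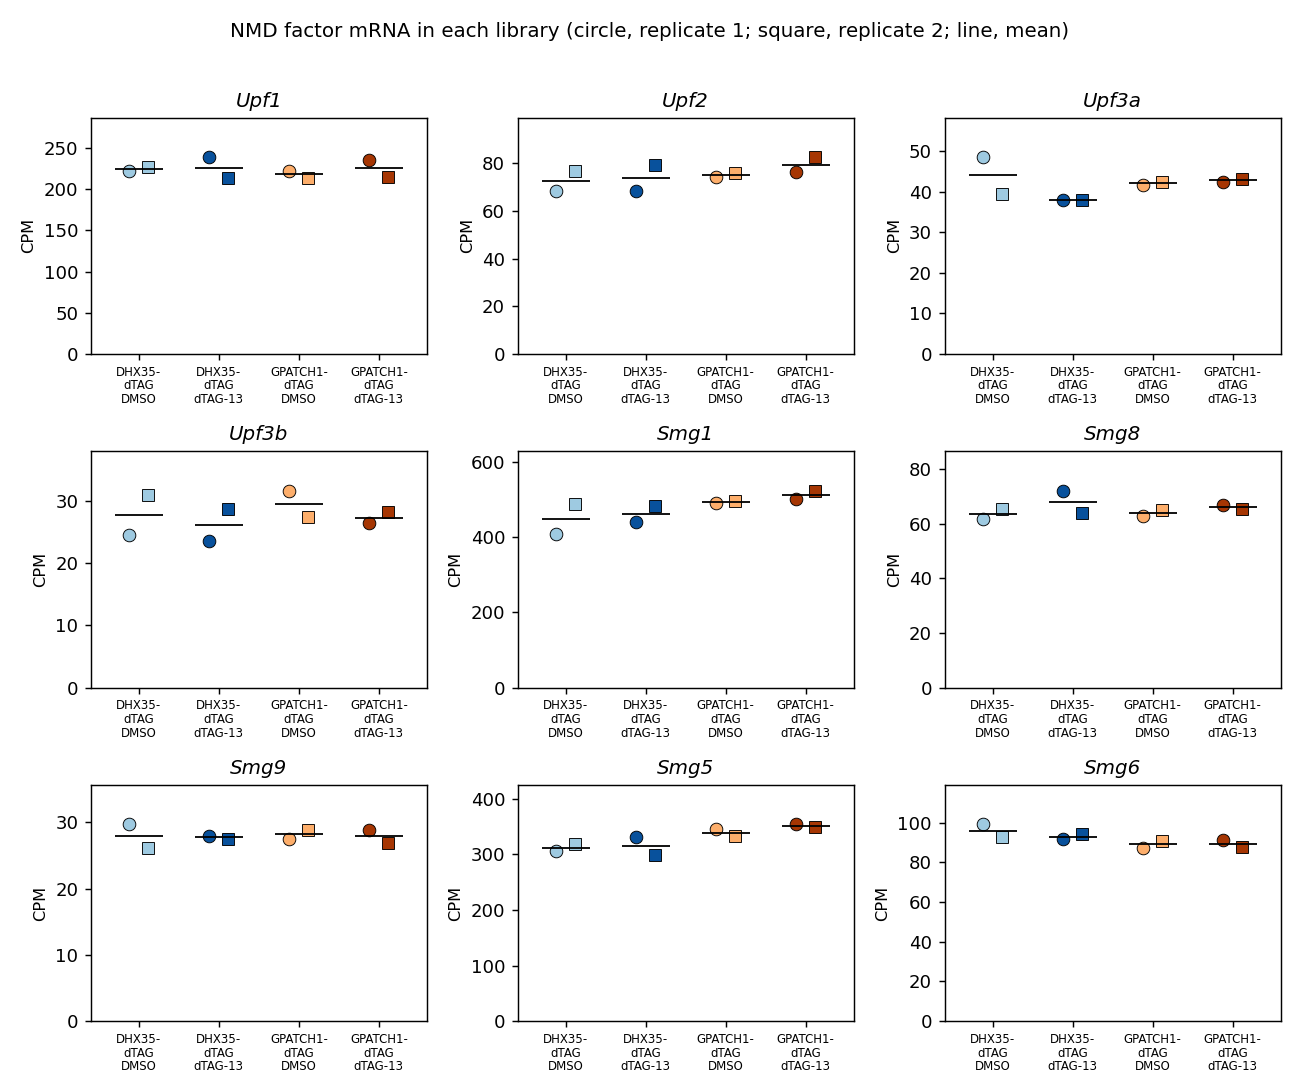
Levels of the 9 NMD factors in CPM (vertical axes, each starting at 0) in the 4 groups (horizontal axes), with circles for replicate 1, squares for replicate 2 and a line at the mean of both. Upf3a is highest in replicate 1 of DHX35-dTAG cells in DMSO at 48.6 CPM, and Smg1 lies between 408 and 523 CPM with all GPATCH1-dTAG libraries above all DHX35-dTAG libraries.

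None of the 9 NMD factors was called on DHX35 depletion at an adjusted p under 0.05 in edgeR's test, where 0% of the 16371 genes tested were called. At an unadjusted p under 0.05, 0 of the 9 and 882 genes in all (5.39%) passed. DESeq2 called 1 gene and limma-voom with sample quality weights 0 genes, with no NMD factor among them. Without the deviant DMSO library edgeR called 2 of 17037 genes, none of them an NMD factor. On GPATCH1 depletion 0 of the 9 were called and 0% of all genes, and at an unadjusted p under 0.05 the counts were 0 of the 9 and 486 genes (2.97%). DESeq2 called 0 genes and limma-voom 35, again without an NMD factor. Leaving out either replicate of DHX35-dTAG cells in DMSO gave 51 genes called by edgeR and 0 of the 9.

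The median log2 fold change of the 9 genes was 0.01 on DHX35 depletion, with 5 values above 0 and 4 below, beside -0.01 over all genes tested. Without the deviant DMSO library the median on DHX35 depletion was -0.02, and the log2 fold change was 0.00 for Upf1, -0.05 for Upf2, -0.08 for Smg1, 0.06 for Smg8, 0.09 for Smg9, -0.02 for Smg5 and 0.00 for Smg6, beside the values of Upf3a and Upf3b given above. On GPATCH1 depletion the median was 0.05, with 7 values above 0 and 2 below, beside 0.00 over all genes. As the share of all genes above 0 is not given here, these counts of signs are not a result about the 9 genes. The libraries of treated and control cells did not overlap for 1 of the 9 on DHX35 depletion, which was Upf3a, against 28.7% of all genes. They did not overlap for 4 of the 9 on GPATCH1 depletion, Upf2, Smg1, Smg5 and Smg8, against 41.8% of all genes. Read against those shares, neither count is a result about these genes. The 95% intervals on DHX35 depletion reached from a fold of 0.722, the lower bound for Upf3a, to 1.24, the upper bound for Smg8. On GPATCH1 depletion they reached from 0.731, for Upf3b, to 1.24, for Upf2.

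**Figure D2:**
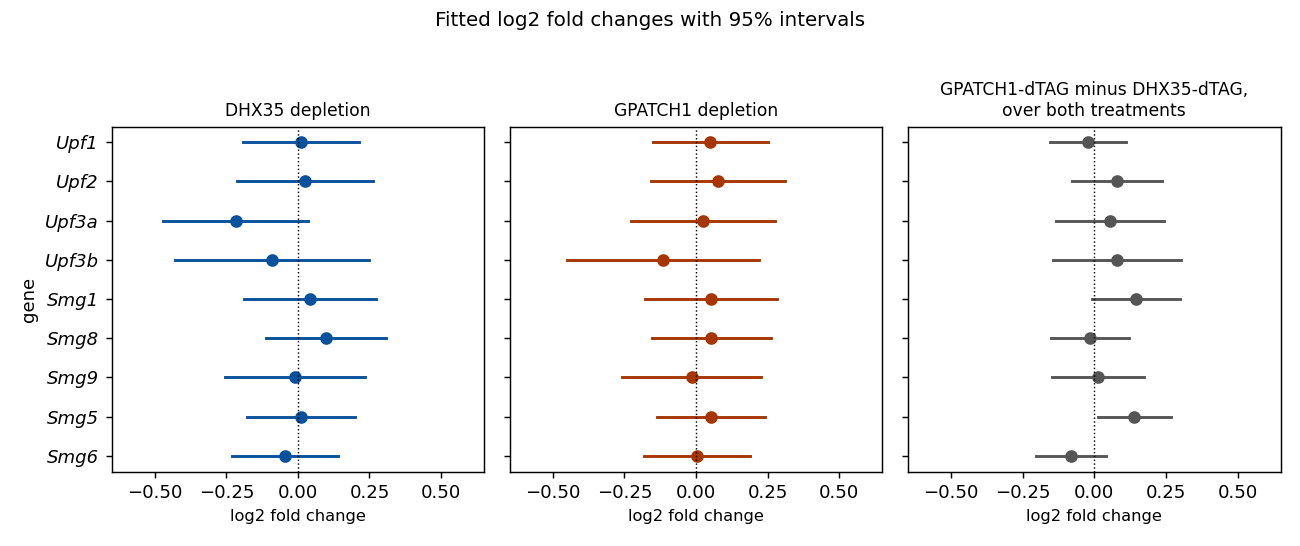
Fitted log2 fold changes (points, horizontal axes) with 95% intervals (lines) of the 9 NMD factors (vertical axis) in the 2 depletions and in the comparison of the lines over both treatments. The intervals include 0 in all cases but Smg5 between the lines, where the interval runs from 0.01 to 0.27 and the adjusted p is 0.29.

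The difference between the depletions was tested as an interaction. None of the 9 genes was called, with 0% of all genes called and 0 of the 9 and 640 genes (3.91%) at an unadjusted p under 0.05. DESeq2 called 9 genes and limma-voom 0, none of them an NMD factor. The difference farthest from 0 was that of Upf3a, at 0.24 in log2 (GPATCH1 minus DHX35 depletion; 95% interval -0.12 to 0.60, adjusted p = 0.86). It was 0.09 without the high DMSO library (adjusted p = 0.97), when 9 genes were called in all, and 0.37 without its partner replicate (adjusted p = 0.028, in a range of 0.028 to 1 over 15 alternatives), when 3592 were.

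In a model with line and treatment, the shared response to dTAG-13 was likewise called for 0 of the 9 genes and 0% of all genes. At an unadjusted p under 0.05 the counts were 0 of the 9 and 587 genes (3.59%), while DESeq2 called 4 genes and limma-voom 9, none of them an NMD factor. Log2 fold changes ran from -0.10 for Upf3b (95% interval -0.33 to 0.12, adjusted p = 0.96) to 0.08 for Smg8 (95% interval -0.06 to 0.21, adjusted p = 0.96). Without the deviant DMSO library the value for Upf3b was -0.17 (unadjusted p = 0.037, adjusted p = 0.66), so that 1 of the 9 had an unadjusted p under 0.05, against 1230 of 17037 genes (7.22%). In that fit edgeR called 8 genes, with no NMD factor among them. The 4 treated and 4 control libraries overlapped for all 9 genes, and did not overlap for 2.25% of all genes.

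When DMSO libraries of the lines were compared, edgeR called 0 of the 9 genes, against 15 genes in all (0.0916%). At an unadjusted p under 0.05 there were 0 of the 9 and 2117 genes (12.9%), and DESeq2 and limma-voom called 47 and 21 genes without an NMD factor. The count of 15 genes was 121 without the deviant DMSO library, 5887 without its partner replicate and 4 to 12 without any 1 of the other 6 libraries. For Smg1 this difference was 0.14 in log2 (95% interval -0.09 to 0.37, adjusted p = 0.53), but 0.02 without replicate 1 of the DHX35-dTAG DMSO group (adjusted p = 0.97) and 0.28 without replicate 2 (adjusted p = 0.006, in a range of 0.006 to 0.97 over 16 alternatives). Over both treatments 0 of the 9 were called, against 129 genes in all (0.788%). The count of 129 was 1013 without the deviant DMSO library, 165 without its partner replicate and 27 to 54 without any 1 of the other 6. At an unadjusted p under 0.05 there was 1 of the 9, Smg5, against 2509 genes (15.3%), and DESeq2 and limma-voom called 227 and 757 genes without an NMD factor. Smg5 did not pass that unadjusted threshold without any 1 of the 4 GPATCH1-dTAG libraries, nor without replicate 2 of DHX35-dTAG cells in dTAG-13. With all 8 libraries, Smg1 passed it beside Smg5 under limma-voom, the replicate number as a block, no filter and removal of Gm23935 and CT010467.1. Without the deviant DMSO library 2 of the 9, Smg5 and Upf3a, had an unadjusted p under 0.05, against 3439 of 17037 genes (20.2%). The 4 libraries of each line did not overlap for 3 of the 9 genes, Smg1 and Smg5 higher and Smg6 lower in GPATCH1-dTAG cells, against 11.6% of all genes. The comparisons between lines use the same DMSO libraries as the depletions, so they do not add to them independently. In bulk RNA, less RNA of a gene per cell and fewer cells with that RNA cannot be told apart.

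Levels were compared between genes per kilobase of annotated exonic bases. The order of mean CPM per kilobase was Upf1 (48.4), Smg5 (47.4), Smg8 (20.3), Smg1 (19.9), Upf2 (13.7), Smg6 (10.9), Smg9 (7.54), Upf3a (7.12) and Upf3b (6.94). Over the 8 libraries the ranges of Upf1 and Smg5 overlapped, as did those of Smg8 and Smg1, and those of Smg9, Upf3a and Upf3b. The ranges of Smg5 and Smg8, of Smg1 and Upf2, of Upf2 and Smg6, and of Smg6 and Smg9 did not overlap. The order depends on the length used, and per kilobase of the principal transcript Smg5 came before Upf1 (74.1 and 48.4 CPM per kilobase) and Upf3a rose to 20.3 CPM per kilobase, beside Smg8. On that length Smg6 (15.7) also came before Upf2 (14.5), and their ranges overlapped. The ranges of Smg5 and Upf1, and of Smg1 and Smg8, did not overlap there.

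The spread of the NMD factors among the libraries was set beside that of other genes. Their coefficients of variation over the 8 libraries had a median of 6.18%, from 4.14% for Smg6 to 10.3% for Upf3b. The median over the 7163 genes with a mean of at least 20 CPM was 8.33%. Upf3a (8.34%) and Upf3b lay above that median and the other NMD factors below it. The genes were not matched by level, and the difference was not tested. The 5 genes outside the group whose log2 CPM over the 8 libraries, centred on its own mean, lay closest to the mean profile of the 9 were Trip13, Ak4, Gak, Ctnnb1 and Chd8. Their root mean square distances in log2 were 0.0207, 0.0220, 0.0223, 0.0228 and 0.0232, among 14597 genes with a mean of at least 1 CPM. The mean profile itself spanned only -0.041 to 0.035, so this likeness is that of genes that scarcely vary. The 9 NMD factors themselves lay farther from it, from 0.0665 for Smg5 to 0.125 for Upf3b, so it stands for none of them closely.

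The gene models were read from GENCODE M21. Smg1 has the longest coding sequence of the group, 10977 bases in 63 exons, which is longer than in 99.5% of 12766 protein-coding genes tested, and Upf3a the shortest, 1269 bases in 9 exons. Smg8 is the most compact, with 4 exons and a 3′ untranslated region of 221 bases. Transcripts annotated as NMD targets are listed for Smg1, Smg5 and Smg6, 1 each, and 28.2% of the 12766 genes have at least 1. Upf1 is the single member with an exon junction after the stop codon of its principal transcript, 3 bases downstream of it. Such a junction, at any distance from the stop codon, is present in 4.04% of genes. No transcript of Upf1 is annotated as an NMD target, and an effect of this junction was not tested. Counts per gene do not separate the transcripts of a gene, so their shares were not analysed here.

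Some of the counts could mix with those of other genes. Exons of Upf1 overlap Cers1 and Gdf1 on the opposite strand by 68 and 63 bases, and exons of Smg6 overlap Srr and Gm12333 on the opposite strand by 126 and 117 bases, at most 1.49% of the exonic bases of either. The strand setting of the counting is not given in the sources used here, so reads from such overlaps cannot be assigned with certainty. Of the 50-base stretches of the 9 genes, at most 1% occur in the same orientation in another gene and at most 1.74% in the opposite one.

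Other genes of the pathway were examined in the depletions. With all 8 libraries DESeq2 called none of them in either depletion, and limma-voom called Gadd45a on GPATCH1 depletion. When the deviant DMSO library was kept and its partner replicate left out, edgeR's calls on DHX35 depletion were 3 of 7 genes of the exon junction complex, 5 of 14 decay and termination partners, 4 of 10 genes for PIKK kinases and their chaperones and 5 of 12 natural targets of NMD, against 4949 of all 17175 genes (28.8%). Where the deviant DMSO library was left out instead, an unadjusted p under 0.05 was reached by 783 of all 17037 genes (4.6%) on DHX35 depletion and by 1432 (8.41%) on GPATCH1 depletion. The exon junction complex marks the places where introns were removed, and 0 of its 7 measured genes were called in either depletion in edgeR's test, with 0 at an unadjusted p under 0.05. Their median log2 fold change was -0.03 on DHX35 depletion, 0.04 without the deviant DMSO library, and -0.01 on GPATCH1 depletion. Without that library 1 of the 7, Casc3, had an unadjusted p under 0.05 on DHX35 depletion (log2 fold change 0.20, unadjusted p = 0.023, adjusted p = 0.99), as did 4.6% of all genes, and its log2 fold change was 0.08 with all libraries. On DHX35 depletion the values ran from -0.30 for Rbm8a (95% interval -0.68 to 0.08, adjusted p = 0.71) to 0.17 for Magoh (95% interval -0.13 to 0.47, adjusted p = 0.72), which encode the Y14 and MAGOH subunits of its core. Rbm8a stood at 182 and 121 CPM in DHX35-dTAG cells in DMSO and at 115 and 131 in dTAG-13, and without the high replicate, the deviant DMSO library, the log2 fold change was 0.03 for Rbm8a and 0.04 for Magoh. On GPATCH1 depletion they ran from -0.19 for Magohb, the paralog of Magoh, at a mean of 1.12 CPM, to 0.10 for Pym1.

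The list of decay and termination partners examined holds 14 genes, among them decapping factors, the 5′ exonuclease Xrn1 and the release factors Gspt1 and Etf1. None was called in either depletion in edgeR's test with all libraries, where 1 of 14 passed an unadjusted p under 0.05 on DHX35 depletion, against 5.39% of all genes, and 0 on GPATCH1 depletion, against 2.97%. Without the deviant DMSO library these counts were 0 and 1 of 14, beside 4.6% and 8.41% of all genes. The median log2 fold change was 0.04 on DHX35 depletion, -0.02 without the deviant DMSO library, and 0.04 on GPATCH1 depletion. The 1 gene was in both fits Dcp1a, a cofactor of the decapping enzyme, which had 65.4 and 80.1 CPM in DHX35-dTAG cells in DMSO and 83.9 and 89.3 in dTAG-13. Both treated libraries were above the controls of that line, and the log2 fold change of 0.25 (95% interval 0.01 to 0.50, adjusted p = 0.71) was 0.11 without the deviant DMSO library, the lowest of the 8. In GPATCH1-dTAG cells Dcp1a stood at 84.3 and 89.4 CPM in DMSO and at 93.8 and 98.5 in dTAG-13, again without overlap, with a log2 fold change of 0.15 (95% interval -0.10 to 0.39, adjusted p = 1) that was 0.15 without that library too (unadjusted p = 0.034, adjusted p = 0.55). Treated and control libraries did not overlap for 28.7% of all genes on DHX35 depletion and 41.8% on GPATCH1 depletion, so this separation is not a result about Dcp1a. Dcp1a had the highest value of the list on DHX35 depletion and Cnot8, a deadenylase subunit, the lowest, with -0.15, which was -0.01 without the deviant DMSO library. On GPATCH1 depletion the ends were Dhx34 with 0.18 and Ncbp2, a subunit of the nuclear cap-binding complex, with -0.14.

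Of 10 genes for PIKK kinases and their chaperones, the family and the folding machinery that SMG1 depends on, 0 were called in either depletion in edgeR's test with all libraries and 0 passed an unadjusted p under 0.05 there. Without the deviant DMSO library 2 of 10, Telo2 and Mtor, passed it on GPATCH1 depletion, where 8.41% of all genes did, and 0 were called. Their median log2 fold change was 0.00 on DHX35 depletion, with 5 of 10 values above 0, and -0.03 without that library. On GPATCH1 depletion it was 0.09, with 9 of 10 values above 0, beside a median of 0.00 over all genes. The share of all genes above 0 is not given here, so the count of signs is not a result about this list. Telo2, a subunit of the TTT chaperone complex of these kinases, stood at 56.8 and 39.7 CPM in DHX35-dTAG cells in DMSO, 39.8 and 38.0 in dTAG-13, 40.4 and 35.8 in GPATCH1-dTAG cells in DMSO and 46.7 and 42.6 in dTAG-13. It lay at the low end on DHX35 depletion with a log2 fold change of -0.31 (95% interval -0.67 to 0.06, adjusted p = 0.71; -0.03 without the deviant DMSO library). On GPATCH1 depletion it lay at the high end with 0.23 (95% interval -0.13 to 0.59, adjusted p = 1). The other ends were Atr with 0.11 on DHX35 depletion, where it was -0.04 without the deviant DMSO library, and Tti1 with -0.05 on GPATCH1 depletion.

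Genes whose mRNAs are known as natural targets of NMD were also examined, and 12 of 13 listed were in the tables and tested. None was called in either depletion in edgeR's test with all libraries or by DESeq2, while limma-voom called 1, Gadd45a, on GPATCH1 depletion. On DHX35 depletion 1 of 12 had an unadjusted p under 0.05, against 5.39% of all genes, and the median log2 fold change was -0.09, or 0.00 without the deviant DMSO library. The lowest value was that of Zfas1, a host gene of small nucleolar RNAs, at -0.47 (95% interval -0.91 to -0.03, adjusted p = 0.71), and the highest that of Ddit3 at 0.32. Zfas1 had 70.9 and 43.3 CPM in DMSO and 40.3 and 41.7 in dTAG-13 in this line, and its log2 fold change was -0.07 without the high replicate. Zfas1 was called on DHX35 depletion with no filter on low counts, when 345 of 32642 genes were.

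On GPATCH1 depletion the median of the natural targets was 0.05 in log2 and 1 of 12 genes had an unadjusted p under 0.05, against 2.97% of all genes. That gene was Gadd45a, a stress-induced gene and a known NMD target, with 17.5 and 17.2 CPM in GPATCH1-dTAG cells in DMSO and 24.6 and 23.4 in dTAG-13. The treated libraries were both above the controls, and 41.8% of all genes had no overlap, in either direction, on GPATCH1 depletion. DHX35-dTAG cells had 25.6 and 21 CPM of Gadd45a in DMSO and 20.2 and 20.7 in dTAG-13. The log2 fold change of Gadd45a on GPATCH1 depletion was 0.47 (95% interval 0.19 to 0.75), with an adjusted p = 1 in edgeR's test on all libraries. The adjusted p was 0.031 without the deviant DMSO library, when 51 of 17037 genes were called, and ranged from 0.011 to 1 over 16 alternatives. The 4 that passed the threshold were limma-voom with sample quality weights on all 8 libraries, the fits without the deviant DMSO library and without its partner replicate, and the fit on only the 4 libraries compared. The difference from DHX35 depletion was 0.66 in log2 (95% interval 0.26 to 1.05, adjusted p = 0.86, or 0.53 without that library). Over 15 alternatives this adjusted p ranged from 0.00079 to 1, and the 1 that passed was the fit without the partner replicate of that library, where 3592 of 17175 genes (20.9%) were called. Atf3, at 1.11 to 2.26 CPM, was at the low end with -0.26.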

How the data were processed

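The authors trimmed reads of ribosomal RNA-depleted stranded libraries with Trim Galore 0.6.6, aligned them with STAR 2.7.5c to mm10 and hg19 (per the submitters' processing notes) and deposited raw counts per gene symbol. The counter, annotation and strand setting are not given in the sources used here. Human spike-in reads were not used here. The test was edgeR 4.0.16 under R 4.3.3 (quasi-likelihood fit and F test, TMM, filterByExpr on the 4 groups, Benjamini-Hochberg adjustment over all 16371 genes, threshold 0.05). Intervals are 95% t intervals with standard errors from the log2 fold change and F. The common dispersion was 0.0125. Alternatives included DESeq2 1.42.0, limma 3.58.1 and each library left out in turn. Replicates were not duplicates, with a chi-square per gene of 4.93 to 121. Pathway genes named by rule are those with the highest and lowest log2 fold change of each list in each depletion, while Casc3 and Mtor were chosen after seeing their values. The 9 genes and all lists were chosen with earlier results of these data known. The length per principal transcript, and the alternatives for the other lists, such as leaving out replicate 1 of DHX35-dTAG cells in DMSO, were chosen after seeing the data. A gene of the decay and termination list is not reported here, and the counts and medians of that list are over the other 14.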

Additional observations from a re-analysis of the deposited data

Results flagged for a closer look

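Over the 8 libraries taken as 1 set, 54 genes of the lists were examined for a library far from the others, by the gap to its nearest neighbour as a fraction of the whole range. Chance alone flags about 1 in 20 such sets. None of the 9 NMD factors and 7 other genes stood out, and in all 7 the distant library was replicate 1 of DHX35-dTAG cells in DMSO. It was the highest library for Snhg15 (76.9 CPM, next 48.1; gap fraction 0.854), Rbm8a (182, next 131; 0.765), Tti2 (36.4, next 29.0; 0.647), Zfas1 (70.9, next 52.3; 0.608), Gas5 (171, next 135; 0.581) and Pym1 (86.2, next 71.0; 0.575). It was the lowest for Dcp1b (6.43 CPM, next 8.18; 0.661). These genes share the library, so they are not independent of each other, and the cause was not tested. That library was also unlike the rest over all genes, and the share of all genes flagged in this way was not examined. Neither the count of NMD factors nor that of the other genes is therefore a result about these genes.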

How the results depend on the processing

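The count of NMD factors called was 0 under DESeq2, DESeq2's size factors in edgeR, either other filter on low counts (none, or 10 counts in each library), removal of Gm23935 and CT010467.1, limma-voom with sample quality weights and, where run, only the 4 libraries compared. With the replicate number as a block it was also 0 in all 6 comparisons. Replicate differences correlated by 0.036 to 0.298 between groups, over 0.1 in 4 of 6 pairs of groups, and Smg1 and Upf2 were lower in replicate 1 than in replicate 2 in all 4 groups. The labels name no shared source for a number, so the numbers were not taken to pair libraries. With each library left out, counts ranged from 0 to 1 on DHX35 depletion, for the difference between the depletions and between the lines in DMSO, the 1 being Upf3a, or Smg1 between the lines, when replicate 2 of the DHX35-dTAG DMSO group was left out, and were 0 in the other 3 comparisons. Medians of the 9 genes then ranged from -0.02 to 0.05 on DHX35 depletion, 0.00 to 0.07 for the difference between the depletions and -0.02 to 0.06 between the lines in DMSO.

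No member's sign is secure where its change is near 0. With a library left out, log2 fold changes on DHX35 depletion ranged from -0.07 to 0.09 (Upf1), -0.08 to 0.13 (Upf2), -0.25 to 0.10 (Upf3b), -0.08 to 0.19 (Smg1), -0.07 to 0.09 (Smg5), -0.08 to 0.00 (Smg6) and -0.09 to 0.09 (Smg9). On GPATCH1 depletion they ranged from -0.02 to 0.11 (Upf1), -0.03 to 0.03 (Smg6) and -0.06 to 0.03 (Smg9), and removing Gm23935 and CT010467.1 gave 0.00 for Smg6. For the other members the sign held but the size moved. The ranges were -0.35 to -0.06 (Upf3a) and 0.01 to 0.19 (Smg8) on DHX35 depletion. On GPATCH1 depletion they were 0.02 to 0.14 (Upf2), 0.01 to 0.04 (Upf3a) and -0.22 to -0.01 (Upf3b). There Smg1 ranged from 0.02 to 0.09, Smg5 from 0.02 to 0.08 and Smg8 from 0.03 to 0.07. Per kilobase of the principal transcript, levels were 20.3 CPM for Upf3a, 11.8 for Upf3b, 30.7 for Smg1, 74.1 for Smg5, 15.7 for Smg6 and 12.5 for Smg9, from the shorter length used. Over all genes, counts called ranged more widely, from 0 to 345 on DHX35 depletion (highest with no filter) and 0 to 127 on GPATCH1 depletion (highest with only its 4 libraries), and to 4949 and 51 with a library left out. With 2 libraries a group, 1 library can decide such counts.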
